A study of Mus musculus with 15 samples.

Results

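The DNA damage response of the mouse 2-cell embryo was followed through 42 genes of damage signalling and repair, taken by name from the 53023 genes of an RNA-seq table and sorted by repair pathway. All 42 were found in the table, and the rule went by gene name and used no measured value. The study asked how transcripts respond to disruption of filamentous actin within the nucleus, and each library was made from 5 pooled ICR embryos collected 32 hours after insemination. The 6 libraries form 3 pairs, C, B and A, of 2 pools each, and their titles contradict what is annotated as injected. By the annotation, pair C received mRNA for actinR62D-HA-NLS, a non-polymerising actin with a nuclear localisation signal, pair B received actinWT-HA-NLS, its wild-type counterpart, and pair A was not injected. By the titles, pair C is the non-injected control, pair B is R62D and pair A is Wt. No reading was chosen from the data, so each comparison is given by pair. Injection, where it took place, was done in fertilised embryos 2 hours after insemination, and no label says how many pools came from 1 mating. A level is a share of the polyadenylated RNA of a pool, so fewer contributing embryos and less RNA per embryo cannot be told apart.

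Cells answer DNA lesions with kinases that sense the damage and with enzymes that mend it. ATM is called to double-strand breaks and activates CHK2, while ATR, carried to single-stranded DNA by ATRIP, activates CHK1. Breaks are then either trimmed and copied from the sister chromatid by homologous recombination, which needs BRCA1, PALB2 and BRCA2, or joined directly by the Ku and DNA-PK machinery. Damaged bases, bulky adducts, mispaired bases and crosslinks each have a route of their own. The fully grown oocyte stores many of these transcripts for use before and around the activation of the embryonic genome.

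Sequencing depth was 907210 to 1555431 assigned reads per library, recovered from the deposited FPKM values (fragments per kilobase of gene, scaled to the assigned fragments of the library). The 6 markers of the 2-cell stage and the 6 oocyte transcripts that were looked up averaged 5.94 to 623 FPKM. Among 15 cumulus and granulosa genes 6 were at 0 in every library, and only Nr5a2 (11.1 FPKM), which embryos also use, and Tnfaip6 (1.35 FPKM) reached a mean of 1 FPKM. Of 10 sperm genes, Ldhc (36.0 FPKM) and Odf2 (3.13 FPKM) did, of 4 fibroblast genes 0, and of 7 blood genes Hba-a1 (22.4 FPKM), Hba-a2 (19.5 FPKM) and Cd68 (2.44 FPKM). The blood genes summed to 12.6 and 31.3 FPKM in pair C, 47.1 and 77.5 FPKM in pair B and 17.0 and 81.6 FPKM in pair A, lowest first, and their part in the results was not tested. Libraries A2 and C2 stood apart from the others on the first principal component, with scores of 49.3 and 49.7 against -32.7 to -11.1, and on 4 Y-linked genes B2 had 0 reads and the others 89 to 233. Actb, the beta-actin gene, averaged 30.9 FPKM in pair C, 95.1 FPKM in pair B and 60.6 FPKM in pair A, without passing over all genes in any comparison (limma, adjusted p = 0.991 for pair B against pair A and 1 for the other comparisons). Its log2 fold change was -1.57 in C against B (95% interval -2.38 to -0.75) and -0.95 in C against A (-1.76 to -0.13). In B against A it was 0.62 (-0.19 to 1.43). These intervals are not adjusted over all genes, and the part of injected mRNA in these values was not tested.

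The 42 genes ranged from 53.8 FPKM (Brca2) to 0.060 FPKM (Ogg1) in their mean over the 6 libraries. Of them, 34 (81.0%) averaged at least 1 FPKM, 16 at least 5 FPKM, 12 at least 10 FPKM and 4 at least 40 FPKM. Among all 21963 protein-coding genes of the table, 40.7% averaged at least 1 FPKM. The 4 most abundant members, Brca2, Chek2, Chek1 and Parp2, made up 46.9% of the summed level of the list. No member was at 0 in all 6 libraries, but 9 had fewer than 3 reads in at least 1 library. The members together took 0.223% to 0.257% of the reads of a library.

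**Figure D1:**
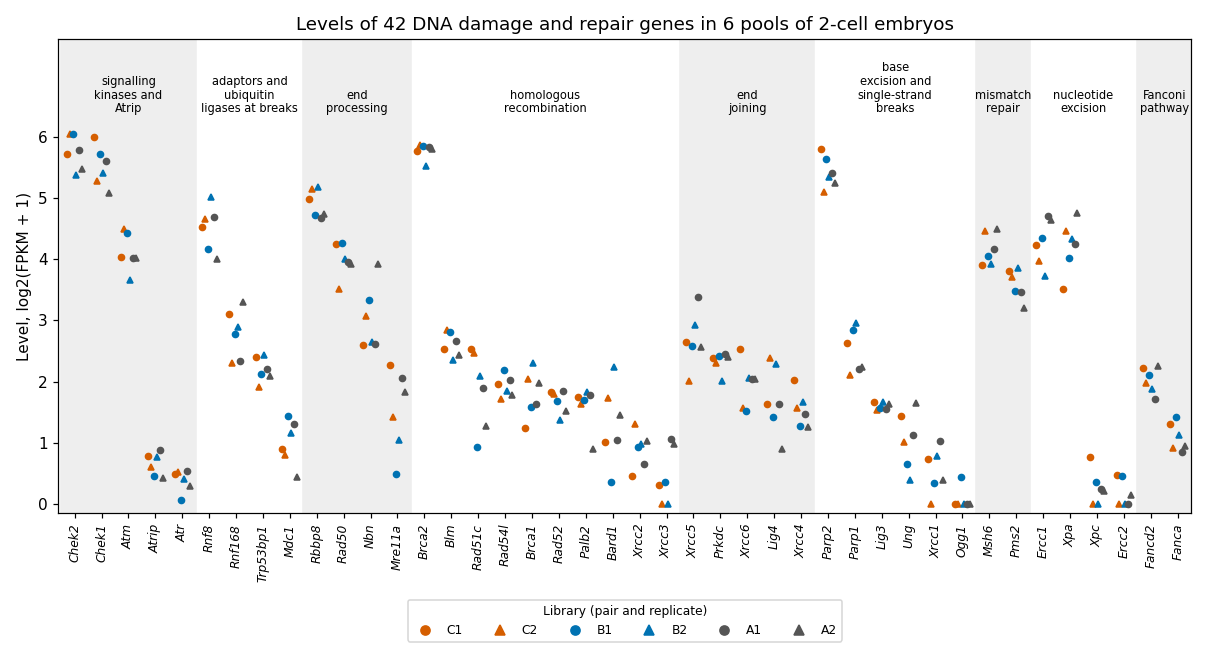
Levels of the 42 genes on the log2(FPKM + 1) scale, grouped by pathway and ordered by mean within each group, with 1 symbol per library. Brca2, Chek2, Chek1 and Parp2 lie above 5 on this scale in all 6 libraries, Ogg1, Ercc2, Xpc, Atr and Atrip lie below 1 in all 6, and the 3 colours of the pairs are intermixed for most genes.

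In what follows a pair's values are given as replicate 1 and then replicate 2. Of the signalling kinases, Chek2, which encodes the effector kinase CHK2 (chromosome 5, 110839979 to 110874145, mm10), measured 51.8 and 65.4 FPKM in the C libraries, 64.8 and 40.4 FPKM in the B libraries and 54.3 and 43.2 FPKM in the A libraries. Chek1, the effector of the ATR arm (chromosome 9, 36708482 to 36727065), measured 63.2 and 37.6 FPKM in the C libraries, 51.9 and 41.4 FPKM in the B libraries and 47.8 and 32.8 FPKM in the A libraries. In mean level Chek2 stood above 88.6% of the genes tested and Chek1 above 87.0%, and the libraries of the 3 pairs overlapped for both. Atm, the apical kinase of the break response, measured 15.4 and 21.4 FPKM in the C libraries, 20.6 and 11.7 FPKM in the B libraries and 15.3 and 15.2 FPKM in the A libraries. The C libraries lay just above the A libraries, and the B libraries overlapped with both. Chek2 exceeded Atm in all 6 libraries, by a ratio that stayed between 2.84 and 3.55.

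The other arm was uneven. Atr itself (chromosome 9, 95857597 to 95951781) measured 0.408 and 0.443 FPKM in the C libraries, 0.050 and 0.319 FPKM in the B libraries and 0.444 and 0.227 FPKM in the A libraries, on 1.5 to 15 reads. Its partner Atrip averaged 0.582 FPKM on 2 to 6 reads. Chek1 exceeded Atr in each of the 6 libraries, at 145 times its mean level. A part of that ratio lies in the length by which reads were divided, since the table gives Atr 23629 bases where the longest coding transcript in GENCODE M21 has 8102. On that shorter length Atr would average 0.920 FPKM and Chek1 55.9 FPKM, with reads outside that transcript still counted.

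At the sites of breaks, MDC1 binds the marked chromatin, RNF8 and RNF168 ubiquitylate histones there, and 53BP1 (Trp53bp1) reads that mark. Rnf8 was the most abundant of the 4, at 21.9 and 24.3 FPKM in the C libraries, 16.9 and 31.3 FPKM in the B libraries and 24.9 and 15.01 FPKM in the A libraries. Its pairs overlapped. Rnf168 averaged 6.11 FPKM and Trp53bp1 3.61 FPKM. Mdc1, the scaffold that recruits the ligase RNF8, averaged 1.07 FPKM on 3 to 16 reads. Rnf8 exceeded Rnf168 and Mdc1 in all 6 libraries, but 4 of its 6 read counts were fractional, and 13.2% of its exonic length in GENCODE M21 is shared with Gm28043 on the same strand. The table's length for Rnf8 (3178 bases) also differs from that annotation (11703 bases).

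End processing starts homologous recombination. Rbbp8, which encodes CtIP, the cofactor of resection, measured 30.6 and 34.5 FPKM in the C libraries, 25.4 and 35.3 FPKM in the B libraries and 24.6 and 25.7 FPKM in the A libraries, so both C libraries lay above both A libraries. The subunits of the MRN complex, which binds and tethers broken ends, were unequal. Rad50, the tethering ATPase, averaged 15.1 FPKM, Nbn, the subunit that binds ATM, 7.68 FPKM, and Mre11a, the nuclease, 2.12 FPKM. The order Rad50, Nbn, Mre11a held in each of the 6 libraries, although in A2 Rad50 and Nbn both measured 14.1 FPKM.

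Members of homologous recombination spanned 0.431 FPKM (Xrcc3) to 53.8 FPKM (Brca2). Brca2, whose protein acts on resected DNA (chromosome 5, 150522630 to 150570329), measured 53.4 and 57.5 FPKM in the C libraries, 56.4 and 45.1 FPKM in the B libraries and 55.8 and 54.4 FPKM in the A libraries, on 712 to 1134 reads. The pairs overlapped, and among the 14 members with a mean of at least 50 reads it had the smallest coefficient of variation over the 6 libraries, 8.38%. Its partners were lower. Brca1 averaged 2.57 FPKM, Palb2, the bridge between BRCA1 and BRCA2, 2.10 FPKM, and Bard1, the obligate partner of BRCA1, 1.69 FPKM. Brca2 exceeded Brca1 by 11.5 to 39.4 times in the single libraries and Palb2 by 17.6 to 63.8 times.

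Rad51c, Xrcc2 and Xrcc3, whose products act in strand exchange, were low. Rad51c measured 4.77 and 4.53 FPKM in the C libraries, 0.902 and 3.25 FPKM in the B libraries and 2.74 and 1.43 FPKM in the A libraries. Both C libraries were above the other 4. Xrcc2 averaged 0.888 FPKM and Xrcc3 0.431 FPKM, and Xrcc3 rested on 0 to 3 reads per library. The annealing factor Rad52 averaged 2.22 FPKM, the motor protein gene Rad54l 2.80 FPKM and Blm, the helicase that dissolves joint molecules, 5.13 FPKM. On the length of the longest coding transcript these would be 7.55, 7.13 and 9.44 FPKM.

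The 5 members of end joining averaged 1.96 to 5.68 FPKM. Xrcc5, which encodes Ku80, averaged 5.68 FPKM, Xrcc6, which encodes Ku70, 3.01 FPKM, and Prkdc, the catalytic subunit of DNA-PK, 4.05 FPKM. The ligase gene Lig4 averaged 2.47 FPKM and Xrcc4, its cofactor, 1.96 FPKM. Xrcc5 exceeded Xrcc6 in 6 of 6 libraries, by 1.10 to 3.00 times, while Xrcc4 exceeded Lig4 in 2 of 6. These orders depend on the length used. On the length of the longest coding transcript, Xrcc4 would average 5.37 FPKM and Lig4 2.56 FPKM. Xrcc5 would stay at 5.68 FPKM and Xrcc6 would average 4.08 FPKM. All 5 averaged at least 1 FPKM and 0 of 5 reached 10 FPKM. Their median was 3.01 FPKM, beside 2.40 FPKM for the 10 members of homologous recombination, of which 1 reached 10 FPKM.

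In single-strand break and base excision repair, Parp2, a poly(ADP-ribose) polymerase that senses breaks (chromosome 14, 50807841 to 50821301), measured 54.6 and 33.1 FPKM in the C libraries, 49.0 and 39.8 FPKM in the B libraries and 41.6 and 36.9 FPKM in the A libraries. All 3 pairs overlapped. Parp1, its larger relative, measured 5.22 and 3.33 FPKM in the C libraries, 6.20 and 6.80 FPKM in the B libraries and 3.59 and 3.72 FPKM in the A libraries. Both B libraries were above the other 4 for Parp1. Parp2 exceeded Parp1 in every library, by 5.85 to 11.6 times. The nick-sealing partners were low, with Lig3 at a mean of 2.03 FPKM and its scaffold Xrcc1 at 0.498 FPKM. Of the glycosylases that remove damaged bases, Ung, which acts on uracil, averaged 1.15 FPKM, and Ogg1, which acts on oxidised guanine, had 1 read in B1 and 0 reads in the other 5 libraries. A count of 0 allows up to 3 reads, which for Ogg1 is worth 0.882 FPKM in C1, the deepest library, and 1.51 FPKM in C2, the shallowest.

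Nucleotide excision repair combined high and near-absent transcripts. Ercc1, part of the nuclease that cuts on the 5' side of a lesion, measured 17.8 and 14.7 FPKM in the C libraries, 19.3 and 12.2 FPKM in the B libraries and 25.1 and 23.9 FPKM in the A libraries. Both A libraries were above the other 4. Xpa, which verifies the lesion, averaged 18.2 FPKM. By contrast Xpc, the damage sensor, and Ercc2, a helicase of the transcription factor TFIIH, averaged 0.222 and 0.145 FPKM, on at most 6 and 2.5 reads in a library. For Ercc2, 42.7% of the exonic length is shared with Gm26852 on the opposite strand, and the handling of strand is not given in the sources used here.

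Of the mismatch repair genes, Msh6, a subunit of the mismatch sensor, averaged 17.2 FPKM and Pms2, which nicks the faulty strand, 11.1 FPKM. Pms2 was lowest in A2, at 8.21 FPKM, and Msh6 in C1, at 14.1 FPKM. In the Fanconi pathway for crosslinks, Fancd2, the protein that is ubiquitylated at stalled forks, averaged 3.10 FPKM and Fanca, of the ligase core, 1.16 FPKM.

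**Figure D2:**
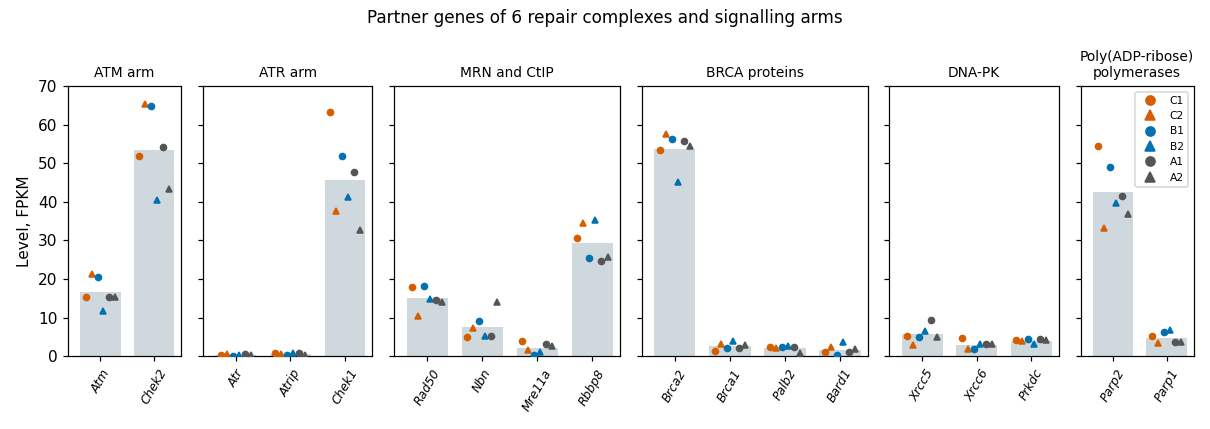
Levels in FPKM of genes whose products act together, with 1 symbol per library and a bar for the mean of the 6 libraries. Within each panel 1 gene stands well above at least 1 partner, as Brca2 (53.8 FPKM) over Brca1 (2.57 FPKM) and Chek1 (45.8 FPKM) over Atr (0.315 FPKM), except in the DNA-PK panel, where all 3 genes lie below 10 FPKM.

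Promoters are shown for the 3 highest and the 3 lowest members that have an entry with a single start, because these genes mark the ends of the range of levels. Each run is the 250 bases before the RefSeq start (GRCm38.p6), on the strand of the gene, and capitals mark matches to 4 short motifs on either strand: the CCAAT box (CCAAT), the GC box (GGGCGG), an E2F-type site (TTTNNCGC, where N is any base) and the TATA box (TATAAA). The windows are chr5:150522371-150522620 (plus strand, Brca2), chr5:110839733-110839982 (plus, Chek2), chr9:36726659-36726908 (minus, Chek1), chr9:95857347-95857596 (plus, Atr), chr7:19381767-19382016 (plus, Ercc2) and chr6:113326726-113326975 (plus, Ogg1).
Brca2: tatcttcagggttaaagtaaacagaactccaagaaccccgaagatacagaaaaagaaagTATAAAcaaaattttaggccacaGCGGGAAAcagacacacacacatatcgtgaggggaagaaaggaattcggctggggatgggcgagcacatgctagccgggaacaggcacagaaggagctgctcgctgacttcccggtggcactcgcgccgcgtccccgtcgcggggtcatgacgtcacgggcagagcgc
Chek2: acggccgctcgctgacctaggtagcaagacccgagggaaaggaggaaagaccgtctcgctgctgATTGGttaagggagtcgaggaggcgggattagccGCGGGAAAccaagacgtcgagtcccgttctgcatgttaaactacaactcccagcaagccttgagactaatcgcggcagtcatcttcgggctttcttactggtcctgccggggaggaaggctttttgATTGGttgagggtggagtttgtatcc
Chek1: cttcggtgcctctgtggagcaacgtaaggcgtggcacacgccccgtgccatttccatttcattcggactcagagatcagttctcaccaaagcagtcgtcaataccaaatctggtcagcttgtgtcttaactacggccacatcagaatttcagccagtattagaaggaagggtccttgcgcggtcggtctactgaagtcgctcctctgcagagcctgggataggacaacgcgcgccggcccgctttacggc
Atr: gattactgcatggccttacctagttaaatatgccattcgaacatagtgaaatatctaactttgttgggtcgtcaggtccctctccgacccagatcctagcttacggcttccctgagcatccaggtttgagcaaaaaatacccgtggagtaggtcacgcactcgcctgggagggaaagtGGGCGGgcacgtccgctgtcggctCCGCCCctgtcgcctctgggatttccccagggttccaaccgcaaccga
Ercc2: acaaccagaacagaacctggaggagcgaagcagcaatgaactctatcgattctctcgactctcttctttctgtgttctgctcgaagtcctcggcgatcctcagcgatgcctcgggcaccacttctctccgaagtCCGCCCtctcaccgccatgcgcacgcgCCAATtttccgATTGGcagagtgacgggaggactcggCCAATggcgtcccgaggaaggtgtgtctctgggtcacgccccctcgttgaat
Ogg1: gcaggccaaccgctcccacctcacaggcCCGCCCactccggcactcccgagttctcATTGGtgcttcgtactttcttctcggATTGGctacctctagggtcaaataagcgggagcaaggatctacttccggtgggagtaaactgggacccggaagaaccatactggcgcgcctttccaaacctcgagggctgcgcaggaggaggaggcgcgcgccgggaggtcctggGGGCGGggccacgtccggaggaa
Brca2 and Chek2 each held 1 E2F-type match, Chek1 held no match to any of the 4 motifs, and Chek2, Ercc2 and Ogg1 held 2, 3 and 2 CCAAT boxes. The Chek1 window lies inside the span of the gene in the RNA-seq table (36708482 to 36727065), so bases before that span were not searched. No matches of different motifs overlapped in these windows. Of the 42 members, 35 had a promoter entry, with 38 windows in all. A GC box was present in 27 of the 38 windows (71.1%), against 32.7% of all 32851 promoter windows of that length, taken without regard to expression. The CCAAT box was in 19 (50.0%, against 33.8%), the E2F-type site in 5 (13.2%, against 4.28%) and the TATA box in 1 (2.63%, against 12.4%). The members' windows were also richer in G and C, with a median of 58.8% against 52.4% over all windows. The parts of base composition and of expression level in these shares were not tested. Among the members with a mean of at least 10 FPKM, 6 of 10 windows held a GC box, and among those below 1 FPKM 4 of 6 did.

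Over the 34 members tested, the coefficient of variation across the 6 libraries had a median of 26.5% and ran from 6.26% to 71.5% (Bard1, on 2 to 25 reads). It exceeded the value that counting error alone gives in 27 of 34 members. For the 14 members with a mean of at least 50 reads the median was 18.9%, and for the 20 others 33.6%. The lowest value of all, 6.26%, was also among these 20. Across the 34 members, levels of any 2 libraries correlated at r = 0.913 to 0.970, with r = 0.941 within pair C, 0.936 within pair B and 0.947 within pair A. The lowest value was between B2 and A2 and the highest between C1 and A1, both across different pairs. The 3 values within pairs lie between them. These are correlations across genes, which share a library and are not independent replicates.

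**Figure D3:**
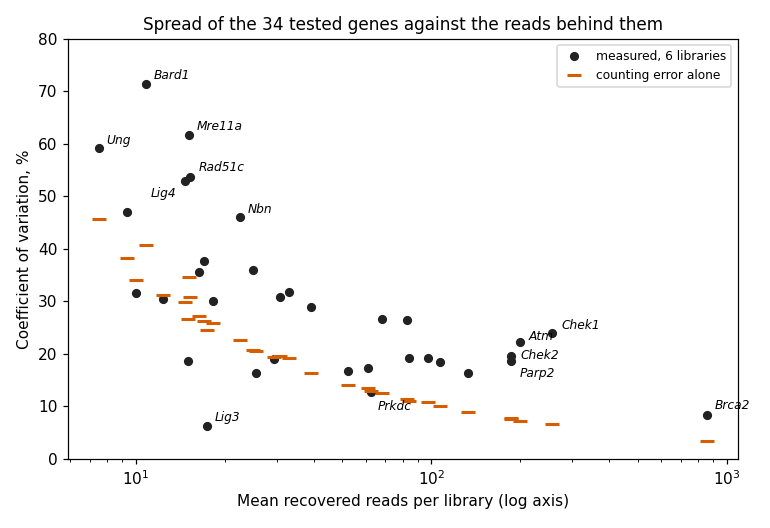
Coefficient of variation over the 6 libraries (percent) of the 34 tested genes against the mean number of recovered reads per library (log axis), with a dash for the value that counting error alone gives. Brca2 has the most reads and 8.38%, while the widest spreads, such as those of Bard1 (71.5%) and Mre11a (61.8%), are at genes with few reads. The smallest value, 6.26%, is also at a gene with a mean below 50 reads.

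The first comparison, pair C against pair B, sets R62D against wild-type nuclear actin if the annotation holds, or uninjected embryos against R62D if the titles hold. Of the 34 members tested, 0 passed at an adjusted p of 0.05 (limma on log2(FPKM + 1), Benjamini-Hochberg over all 13443 genes that averaged 1 FPKM or more), where 0% of all genes did. At an unadjusted p below 0.05 there were also 0 members, against 3.85% of all genes. With limma-voom on recovered reads 0 members passed at an adjusted p of 0.05. By its unadjusted p 1 member was below 0.05, higher in C, where 233 of all 13443 genes were higher and 311 lower. The libraries of C and B did not overlap for 6 of 34 members, 4 higher and 2 lower in C, a share of 17.6% beside 30.2% of all genes tested (15.5% higher and 14.8% lower). The median log2 fold change of the members was 0.078, with 20 of 34 above 0 (58.8%, beside 49.9% of all genes), beside a median of 0 over all genes. The members without overlap were Mre11a, Rad51c, Ung and Rad52, higher in C, and Parp1 and Mdc1, lower in C. Without A2 and C2, the libraries that stood apart, 0 members passed (limma, smallest adjusted p = 0.992) and 2 had an unadjusted p below 0.05, both higher in C, where 307 of all 13443 genes were higher and 219 lower.

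Mre11a, the MRN nuclease, had the lowest unadjusted p. It measured 3.85 and 1.67 FPKM in C1 and C2, against 0.400 and 1.06 FPKM in B1 and B2, on 35.5 and 9 reads against 3 and 7.5. Both C libraries were above both B libraries. The log2 fold change was 1.08 ± 0.51 (SE), with a 95% interval of -0.11 to 2.28 (limma, adjusted p = 1). For Rad51c it was 0.99 ± 0.52 (SE), with 4.65 ± 0.17 FPKM in pair C against 2.07 ± 1.66 FPKM in pair B (SD, n = 2 each; limma, adjusted p = 1). For Parp1 it was -0.53 ± 0.38 (SE), with 4.28 ± 1.34 FPKM in pair C against 6.50 ± 0.43 FPKM in pair B (SD, n = 2 each; limma, adjusted p = 1). The most precisely measured member, Brca2, had a log2 fold change of 0.13 with a 95% interval of -0.53 to 0.80. Of the 34 members, 9 had an interval that lay between -1 and 1, and for the rest a change of 1 on the log2 scale in at least 1 direction lies within the error. In the other 2 comparisons such an interval was found for 7 members each.

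**Figure D4:**
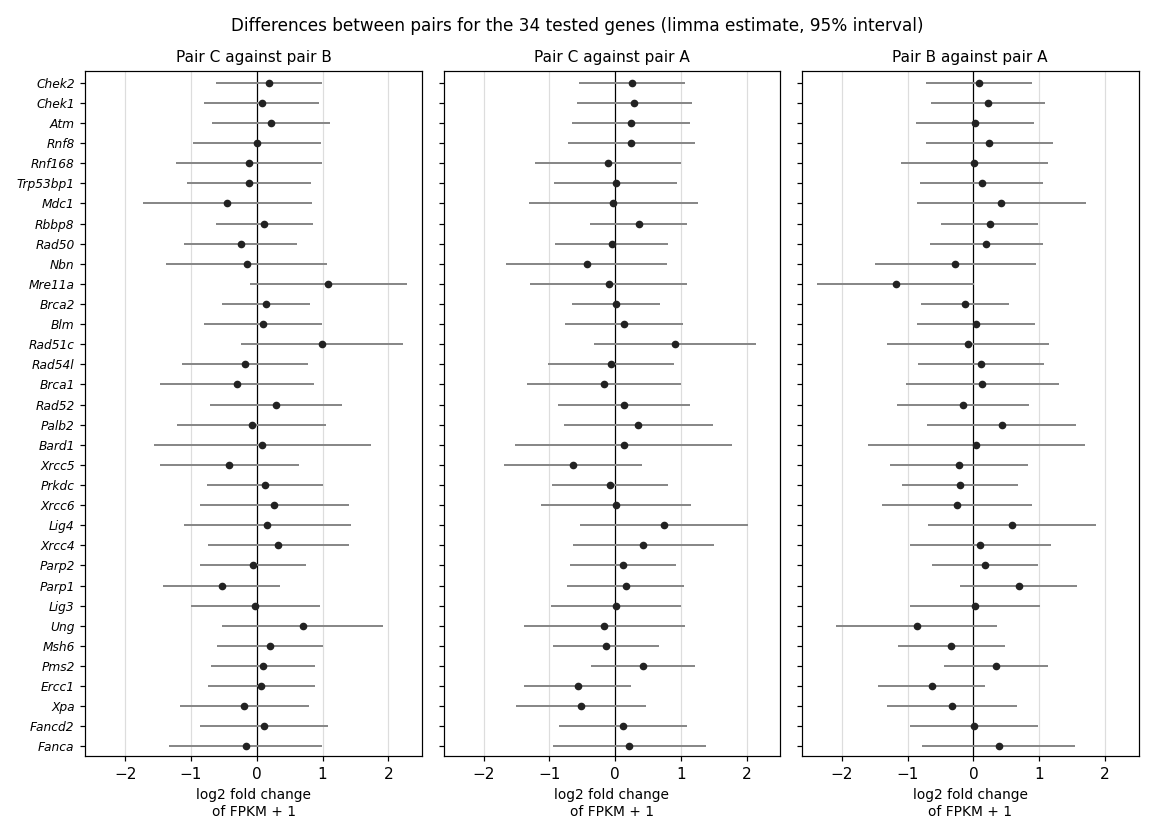
Log2 fold changes of FPKM + 1 for the 34 tested genes in the 3 comparisons, as limma estimates (points) with 95% intervals (lines), in the pathway order of the plot of levels. Every interval includes 0, and the half-widths run from 0.67 (Brca2) to 1.65 (Bard1).

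Pair C against pair A sets R62D against uninjected embryos if the annotation holds, or uninjected embryos against Wt if the titles hold. Again 0 of 34 members passed (limma), where 0% of all genes did, 0 had an unadjusted p below 0.05, against 3.01% of all genes, and limma-voom called 0. The pairs did not overlap for 7 members, 5 higher and 2 lower in C (20.6%, beside 26.9% of all genes, 16.5% higher and 10.4% lower). The median log2 fold change was 0.066, with 21 above 0 (61.8%, beside 56.5% of all genes), beside a median of 0.065 over all genes. After median scaling 17 were above 0 and 17 below. The members without overlap were Rad51c, Pms2, Rbbp8, Xrcc4 and Atm, higher in C, and Ercc1 and Prkdc, lower in C. Without A2 and C2, 0 passed (limma, smallest adjusted p = 0.995), 0 had an unadjusted p below 0.05, where 296 of all genes were higher and 208 lower, and the median log2 fold change was 0.00041, beside 0.096 over all genes. Rad51c had the lowest unadjusted p, with 4.65 ± 0.17 FPKM in pair C against 2.08 ± 0.93 FPKM in pair A (SD, n = 2 each), a log2 fold change of 0.91 ± 0.52 (SE) and a 95% interval of -0.32 to 2.13 (limma, adjusted p = 1). Ercc1 measured 16.3 ± 2.21 FPKM in pair C against 24.5 ± 0.85 FPKM in pair A (SD, n = 2 each), a log2 fold change of -0.57 ± 0.35 (SE). Xrcc5, whose log2 fold change was -0.64 ± 0.45 (SE), had overlapping pairs, at 5.28 and 3.02 FPKM in C1 and C2 against 9.39 and 4.90 FPKM in A1 and A2. The same pair A libraries enter the next comparison and the same pair C libraries the one before, so the 3 comparisons share their samples.

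Pair B against pair A sets wild-type nuclear actin against uninjected embryos if the annotation holds, or R62D against Wt if the titles hold. In it 0 of 34 members passed (limma, smallest adjusted p = 0.991), where 0% of all genes did. At an unadjusted p below 0.05 there were 0 members, against 4.57% of all genes. With limma-voom 0 passed and 2 had an unadjusted p below 0.05, both lower in B, where 388 of all genes were higher and 216 lower. The pairs did not overlap for 8 members, 4 higher and 4 lower in B (23.5%, beside 31.7% of all genes, 18.8% higher and 12.8% lower). The median log2 fold change was 0.040, with 22 above 0 (64.7%, beside 55.1% of all genes), beside a median of 0.066 over all genes. After median scaling 15 were above 0 and 19 below. The members without overlap were Parp1, Pms2, Fanca and Rad50, higher in B, and Mre11a, Ercc1, Ung and Msh6, lower in B. Without A2 and C2, 0 passed (limma, smallest adjusted p = 0.900) and 0 had an unadjusted p below 0.05, where 328 of all genes were higher and 352 lower. The median log2 fold change was then -0.0087, beside 0.022 over all genes. Mre11a measured 0.730 ± 0.466 FPKM in pair B against 2.86 ± 0.42 FPKM in pair A (SD, n = 2 each), a log2 fold change of -1.18 ± 0.51 (SE) with a 95% interval of -2.37 to 0.009 (limma, adjusted p = 0.991). Its B libraries held 3 and 7.5 reads and its A libraries 18.8 and 17. Ercc1, at 15.8 ± 5.00 FPKM in pair B against 24.5 ± 0.85 FPKM in pair A, had a log2 fold change of -0.63 ± 0.35 (SE), and Parp1, at 6.50 ± 0.43 FPKM in pair B against 3.65 ± 0.09 FPKM in pair A (SD, n = 2 each), one of 0.69 ± 0.38 (SE).

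The rest of the repair machinery was read from a list of 105 other genes, of which 79 averaged at least 1 FPKM. Among the most abundant genes of each group, several were far above the members. Tipin, a fork protection factor that helps ATR signalling, averaged 581 FPKM, and the single-strand binding subunits Rpa2 and Rpa3 103 and 18.6 FPKM. Among damage tolerance genes, the ubiquitin-conjugating genes Ube2a and Ube2b, partners of RAD18, averaged 138 and 92.8 FPKM and Mad2l2, a subunit of polymerase zeta and of shieldin, 96.6 FPKM. In the Fanconi pathway the ubiquitin-conjugating gene Ube2t averaged 96.1 FPKM, the deubiquitinase gene Usp1 91.2 FPKM and the translocase gene Fancm 14.7 FPKM. Among the other genes of break repair and recombination these were Rif1, an effector of 53BP1, at 92.4 FPKM, Rad51ap1 at 16.3 FPKM and the nuclease subunit gene Eme1 at 9.50 FPKM.

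In end joining Tdp2, which removes trapped topoisomerase, averaged 39.8 FPKM, Nhej1 (XLF) 18.4 FPKM and Polq, of the alternative route, 6.14 FPKM. In base excision these were Apex1, the endonuclease at abasic sites, at 32.3 FPKM, Polb, the gap-filling polymerase, at 11.3 FPKM and Parg at 6.44 FPKM. In nucleotide excision the TFIIH subunit gene Gtf2h1 averaged 76.8 FPKM and Cetn2, whose product is a partner of XPC, 38.8 FPKM. In mismatch repair, Msh3 averaged 1.94 FPKM and Mlh3 1.56 FPKM. Direct reversal was led by Alkbh2 at 13.0 FPKM and Alkbh3 at 1.84 FPKM, with Mgmt at 0.037 FPKM.

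None of these 79 genes passed over all genes in any comparison (0 with limma and 0 with limma-voom). Those with an unadjusted p below 0.05 numbered 3 higher and 1 lower in C against B, where 1.64% and 2.22% of all genes were. They numbered 0 in C against A, and 4 higher and 1 lower in B against A, where 2.77% and 1.79% of all genes were. Ube2a measured 99.0 and 96.5 FPKM in the C libraries, 235 and 202 FPKM in the B libraries and 115 and 79.1 FPKM in the A libraries, so both B libraries were above the other 4. Its log2 fold change was -1.15 ± 0.30 (SE) in C against B (limma, adjusted p = 1) and 1.18 ± 0.30 (SE) in B against A (limma, adjusted p = 0.875). The others in C against B were Aptx, Etaa1 and Uimc1, with log2 fold changes of 1.21, 0.86 and 0.93. In B against A they were the TFIIH helicase gene Ercc3, the translesion polymerase gene Rev1, the RecQ helicase gene Wrn and the meiotic recombinase gene Dmc1, with log2 fold changes of 1.03, 1.04, 0.997 and -1.15.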

How the data were processed

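RNA was measured in 6 libraries of 5 pooled embryos each. Per the labels' protocols, cDNA was amplified with 13 PCR cycles and made into Nextera XT libraries. The authors deposited FPKM values per gene. The submitters' processing notes name Trimmomatic, Trim Galore, cutadapt, STAR, featureCounts and the build mm10, without versions. Neither the gene annotation nor strand handling is stated there. Reads were recovered as FPKM times length up to 1 factor per library. Some values came out as fractions of a read, and the source of these fractions was not tested. The floor of 3 reads covers counting error only, since PCR copies carry no molecular identifier.

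Genes averaging 1 FPKM or more were fitted as log2(FPKM + 1) in limma 3.58.1 (R 4.3.3), with 1 mean per pair over all 6 libraries and a variance trend. Of the 42 genes, 34 passed that filter. On this scale fold changes of low genes are understated. No label states that the pools are independent, and p-values cover only pool-to-pool spread. The members and lists were chosen with earlier results of these data known. The naming rule took all members, the 3 lowest unadjusted p per comparison, and, of the other repair genes, the 3 highest per group and those with an unadjusted p below 0.05. Alternatives were a pseudocount of 0.1, no filter or 5 FPKM, median or quantile scaling, no trend, the compared pairs alone, a replicate block, limma-voom, protein-coding genes only and leaving out libraries. Some genes under that rule are not reported here. The other 9 samples of the series were not analysed here.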

Additional observations from a re-analysis of the deposited data

How the results depend on the processing

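In each comparison 0 members passed under all 17 alternatives, and the log2 fold changes of the members with the lowest unadjusted p kept their direction wherever they were tested. Leaving out 1 library moved several by over 1.5 times. Mre11a in C against B was 0.66 without C1 (1.08 with all 6), Rad51c 0.41 without B1 and 1.57 without B2 (0.99), and Parp1 -0.27 without C2 (-0.53). Without C2, Mre11a was 1.51, a move of less than 1.5 times. In C against A, Rad51c was 0.60 without A2 (0.91), and Xrcc5 was -0.23 without A1, -0.32 without C2, -0.96 without C1 and -1.05 without A2 (-0.64). Ercc1 in B against A was -0.33 without B2 (-0.63). Changes of processing also moved Mre11a. In C against B it was 1.80 with a pseudocount of 0.1 and 1.95 with limma-voom (1.08 in the main fit). In B against A it was -1.95 and -2.01 (-1.18). Over all genes 0 passed under each alternative except a pseudocount of 0.1, where 1 passed in C against B (Igkv13-87, limma, adjusted p = 0.0342), a gene named after its values were seen. The median log2 fold change of the members in B against A, 0.040, was -0.051 after median scaling and -0.052 after quantile normalization. Leaving out 1 library at a time it ran from -0.0087 to 0.169 in B against A (highest without A1), from -0.0275 to 0.162 in C against A (lowest without C1, highest without C2) and from -0.0189 to 0.078 in C against B (lowest without B2), and the cause was not tested. With a single library left in a pair, that library is assumed to vary like the others. With the replicate block, 0 members passed (smallest adjusted p = 0.959 in C against B, 1 in C against A and 0.891 in B against A). Deviations of same-numbered libraries from the pair means correlated at 0.005 for C and B, 0.203 for C and A and 0.098 for B and A. No label says what the number stands for, and a shared source was not shown. The median log2 fold changes were the same with the block (0.078, 0.066 and 0.040). Chosen after seeing the data, the count of members at a mean of 1 FPKM was 33 without A2 and C2, where Ung averaged 0.94 FPKM, 34 without B2, and 37 with the length of the longest coding transcript, which added Atrip, Xrcc1 and Xrcc2. On that length the highest members were Parp2 (81.4 FPKM), Chek2 (70.3 FPKM), Brca2 (68.4 FPKM) and Chek1 (55.9 FPKM), so their order depends on the length used. Depth limits the 9 members with fewer than 3 reads in a library.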
